A study of Mus musculus with 2 samples.

Results

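Dendritic cells of the mouse uterus were taken from single-cell RNA sequencing of whole uterus on gestational day 4, the time around which the embryo attaches. They were 103 of 6325 usable cell barcodes in the Mettl14 d/d library and 126 of 7610 in the Mettl14 f/f library, or 229 of 13935 in all. A member carried at least 5 unique molecular identifiers (UMIs, single counted RNA molecules) summed over the class II genes H2-Ab1, H2-Aa and Cd74. It also had at least 2 of the 7 genes Flt3, Cd209a, Ccr7, Xcr1, Clec9a, Zbtb46 and Naaa detected, and fewer than 3 summed UMIs of the macrophage complement genes C1qa, C1qb and C1qc. No member had a UMI of Epcam, Pecam1, Cd3e, Ncr1 or Cd79a, which mark epithelium, endothelium, T cells, natural killer cells and B cells. The members were thus chosen by measured values of these genes, which are given below as a description only.

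The compared uteri carried the Mettl14 genotypes d/d and f/f, which by convention denote a deleted and a floxed (recombination-site-flanked) allele pair. Mettl14 encodes a subunit of the enzyme that writes N6-methyladenosine on RNA. The labels name neither the deleted segment nor the Cre driver, so it is not known from them whether dendritic cells were meant to lose the gene. There is 1 library per genotype, and the labels do not say how many uteri each holds. No difference therefore has a replicate check and no p-value is given, and every interval is a 95% interval that covers counting error only.

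Dendritic cells take up antigen in tissues, load peptides onto class II molecules and show them to T cells. Type 1 conventional dendritic cells carry the chemokine receptor Xcr1 and the dead-cell receptor Clec9a, depend on the transcription factors Irf8 and Batf3, and pass antigen to CD8 T cells. Type 2 cells, many of which carry the lectin Cd209a, lean on Irf4 and serve CD4 T cells. On maturation either type raises costimulatory molecules and Ccr7, the receptor that guides cells along lymphatic vessels to lymph nodes. In mice, dendritic cells of the uterus are known to take part in decidual growth and vessel formation after implantation.

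The deposited matrices held 6661 d/d and 8164 f/f barcodes with 44745031 UMIs in d/d and 55080123 UMIs in f/f, and 8 barcode sequences occurred in both libraries, none of them among the members. In stroma, the most numerous cells, Mettl14 stood at 2.57 counts per 1000000 UMIs of the class (CPM) in d/d and at 14.6 CPM in f/f, a log2 ratio of -2.51 (-2.95 to -2.10). In dendritic cells it gave 4 UMIs in d/d and 4 UMIs in f/f, too few to say whether these cells lost the transcript.

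The members had a median of 5510 UMIs in d/d, between 1040 and 18344, and a median of 3932 UMIs in f/f, between 1049 and 35804. Summed over the members, this made 604617 UMIs in d/d and 648232 UMIs in f/f. Not all of this RNA was that of a leukocyte. A group of 13 d/d members (12.6%) and 26 f/f members (20.6%) carried at least 20 UMIs over 46 marker genes of stroma, smooth muscle and pericytes, endothelium and epithelium. These mixed barcodes had a median of 11524 UMIs in d/d and 9406 UMIs in f/f, against 5046 UMIs in the other d/d members and 3551.5 UMIs in the other f/f members. They held 24.3% of all member UMIs in d/d and 45.3% in f/f. The marker list of stroma reached 1454 CPM in d/d members and 5075 CPM in f/f members with all 12 of its genes detected, and 201 CPM in d/d and 638 CPM in f/f without the mixed barcodes. All 8 d/d and 15 f/f members that a doublet score marked were among them. Counts and medians of gene lists are given with these barcodes and, where they differ much, also without them.

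**Figure D1:**
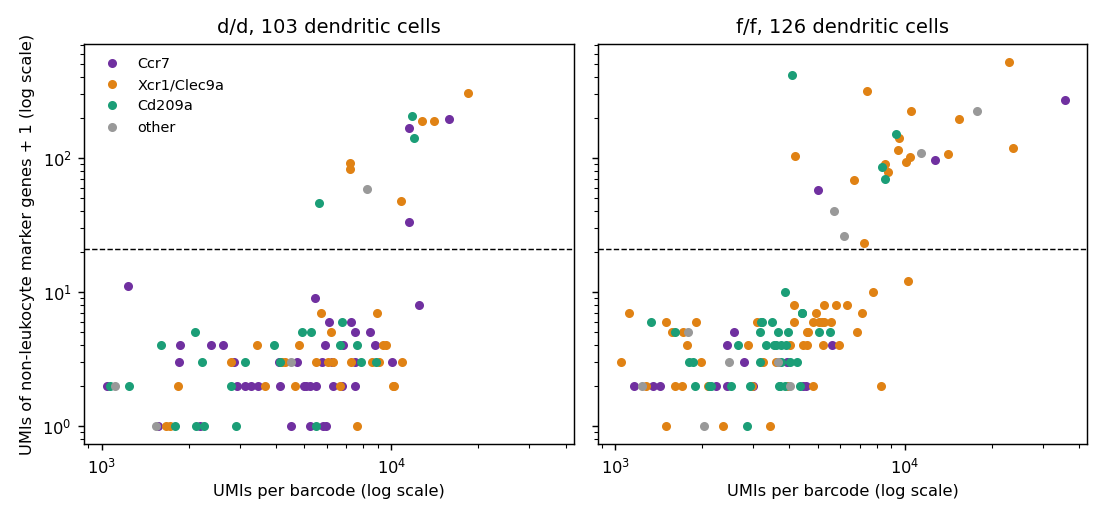
UMIs per barcode (horizontal, log scale) against UMIs of the 46 non-leukocyte marker genes plus 1 (vertical, log scale) for each member, d/d on the left and f/f on the right, coloured by subset. The dashed line marks 20 UMIs: 13 of 103 d/d and 26 of 126 f/f members lie on or above it, most of them with many UMIs.

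Among the members that met the marker rule just barely, 46 in d/d and 51 in f/f had exactly 2 of the 7 genes, while 57 in d/d and 75 in f/f had 3 or more. Just outside it, 42 d/d and 40 f/f barcodes met every other condition with exactly 1 gene. The summed class II level of members ranged from 6 to 444 UMIs in d/d with a median of 179, and from 16 to 219 UMIs in f/f with a median of 103.5. Only 1 d/d and 0 f/f members lay at 5 to 9 class II UMIs, and 0 d/d and 13 f/f barcodes lay just below the limit at 1 to 4. For the complement genes, 7 d/d and 11 f/f members had 1 or 2 UMIs, and 0 d/d and 1 f/f barcodes were left out with 3 to 5. A UMI of an excluding gene removed 20 d/d and 17 f/f barcodes that met the rest, mostly through Epcam in d/d (14) and Pecam1 in f/f (13).

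Genes that the rule did not use described the members as dendritic cells too, although the contrast with macrophages follows from the complement limit and is a description. Relative to 277 d/d and 259 f/f macrophages (barcodes with at least 3 UMIs of the complement genes), the members were at least 2-fold higher in both libraries for 311 of 10056 measured genes, or 3.09%, and lower for 736, or 7.32%. Leading genes included H2-Oa and H2-Ob, subunits of the regulator H2-O that tunes peptide loading on class II, and Napsa, a protease of antigen-presenting cells. H2-Oa stood at 255 CPM in d/d dendritic cells against 2.72 CPM in d/d macrophages, and at 159 CPM in f/f dendritic cells against 0.917 CPM in f/f macrophages. Btla, an inhibitory receptor of lymphocytes and dendritic cells, stood at 39.7 CPM in d/d dendritic cells against 0.679 CPM in d/d macrophages, and at 105 CPM in f/f dendritic cells against 0 CPM in f/f macrophages. The integrin chain Itgb7 and the surface glycoprotein Cd24a were in the same group, with log2 ratios of 4.84 and 3.80 in d/d and 4.0 and 4.40 in f/f. The 16 macrophage markers summed to 289 CPM in d/d and 268 CPM in f/f members, against 36068 CPM in d/d and 14480 CPM in f/f macrophages, and Folr2 and Trem2 were at 0 in members of both libraries. Lists of other leukocytes were low but not empty. The natural killer and innate lymphoid list had 7 of 13 genes at 0 in d/d and 5 of 13 in f/f, with Prf1, Klrb1c and Eomes at 0 in both, and summed to 377 CPM in d/d and 176 CPM in f/f members, against 38.0 CPM in d/d and 85.3 CPM in f/f macrophages. Klrd1, a lectin-like receptor also known from natural killer cells, gave most of this, with 181 UMIs in 62 d/d cells and 80 UMIs in 48 f/f cells. The B cell list had 7 of 12 genes at 0 in d/d and 9 of 12 in f/f, with Ms4a1 and Pax5 at 0 in both, while Ighm, the heavy chain of IgM, had 43 UMIs in 36 d/d cells and 50 UMIs in 42 f/f cells. Of the 12 neutrophil and mast cell genes 10 in d/d and 9 in f/f were at 0. The part of these transcripts in the results was not tested.

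The shares of members with a rule gene are set beside those in stroma, as the background of free RNA. Flt3, the receptor for the growth factor that dendritic cells need, was detected in 51 of 103 d/d and 70 of 126 f/f members. In stroma, with median depths of 6491 UMIs in d/d and 6515 UMIs in f/f, it was detected in 0.0720% of d/d and 0.219% of f/f barcodes. Zbtb46, a transcription factor of conventional dendritic cells, was less selective: it was found in 28.2% of d/d and 28.6% of f/f members, against 4.53% of d/d and 5.60% of f/f stroma. Ccr7 was found in 0.108% of d/d and 0.0997% of f/f stroma and in 2.89% of d/d and 0.386% of f/f macrophages.

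The share of dendritic cells among all usable barcodes was nearly the same in both libraries. It was 1.63% in d/d (exact Clopper-Pearson interval 1.33 to 1.97) and 1.66% in f/f (1.38 to 1.97), a ratio of 0.984 (0.751 to 1.29). Among barcodes with the leukocyte gene Ptprc it was 12.2% in d/d and 11.9% in f/f, a ratio of 1.03 (0.768 to 1.38). The C1q macrophages made up 4.38% of d/d and 3.40% of f/f barcodes, a ratio of 1.29 (1.08 to 1.53).

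What differed between the libraries was the make-up of the dendritic cells. Members were assigned first to a Ccr7 subset, then to an Xcr1/Clec9a subset and then to a Cd209a subset, by any UMI of the gene. Ccr7 was detected in 43 of 103 d/d members (41.7%, 32.1 to 51.9) and in 16 of 126 f/f members (12.7%, 7.44 to 19.8), a ratio of 3.29 (1.81 to 6.25). The Xcr1/Clec9a subset held 32 d/d members (31.1%) and 61 f/f members (48.4%), a ratio of 0.642 (0.405 to 1.0). The Cd209a subset held 24 d/d members (23.3%) and 39 f/f members (31.0%), a ratio of 0.753 (0.433 to 1.28), and 4 d/d and 10 f/f members had none of these genes. The d/d members held more UMIs per barcode, and barcodes with more UMIs show more genes. With every member thinned to 1000 UMIs, the Ccr7 share was 20.4% in d/d and 6.35% in f/f, a ratio of 3.21. The Xcr1/Clec9a share was then 16.5% in d/d and 19.8% in f/f, a ratio of 0.832, and the Cd209a share 30.1% in d/d and 27.0% in f/f, a ratio of 1.12. The Ccr7 difference was thus as large when subsets were assigned at equal depth, while those of the other subsets were smaller or of the other sign. The members themselves were still those chosen with all their UMIs, so their choice was not at equal depth. Without the mixed barcodes the Ccr7 share was 44.4% in d/d and 13% in f/f.

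**Figure D2:**
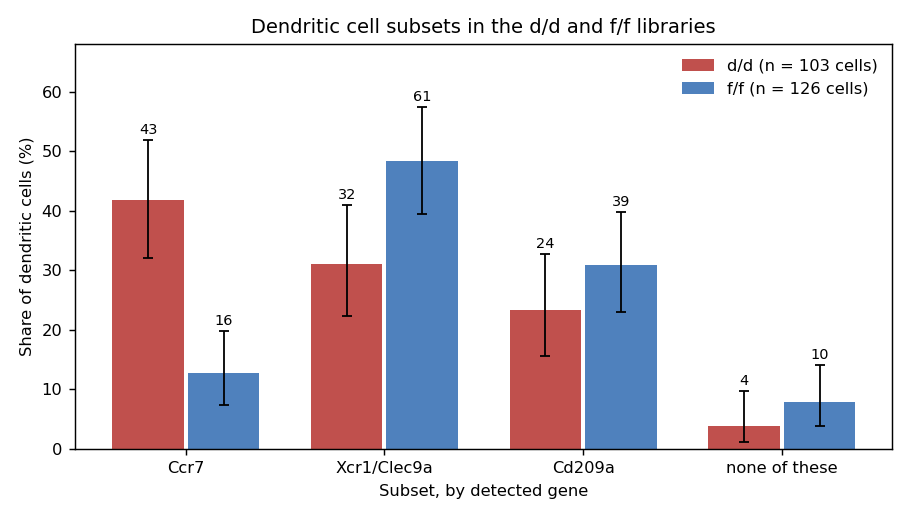
Share of dendritic cells (%) in each subset, d/d left of f/f, with exact 95% binomial intervals that cover counting error and the number of cells above each bar. The Ccr7 bar is higher in d/d (43 of 103 cells) than in f/f (16 of 126 cells). Ccr7 is a gene of the rule, so its share is a description.

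Because assignment began with Ccr7, its subset drew on both lineages. Of the 43 d/d cells with Ccr7, 26 also had Cd209a and 9 had Xcr1 or Clec9a, 10 had neither and 2 had both. Of the 16 f/f cells with Ccr7, 13 also had Cd209a, 0 had Xcr1 or Clec9a, and 3 had neither. Clec10a, another lectin of type 2 cells that the rule did not use, was found in 23 of 43 d/d and 10 of 16 f/f Ccr7 cells, and Irf8 in 14 of 43 d/d and 1 of 16 f/f cells. Any Xcr1 or Clec9a UMI was present in 41 of 103 d/d members (39.8%) and 61 of 126 f/f members (48.4%), so part of the lower share of the Xcr1/Clec9a subset in d/d lay in the order of assignment. Any Cd209a UMI was present in 53 of 103 d/d members (51.5%) and 54 of 126 f/f members (42.9%). Without mixed barcodes these shares were 54.4% in d/d and 47% in f/f. Counted without the order, Cd209a was thus more frequent in d/d, opposite to the share of its subset.

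The Ccr7 subset did not carry the full set of genes known for lymph-homing mature dendritic cells. Fscn1, which bundles actin in mature dendritic cells, was found in 2 of 43 d/d and 3 of 16 f/f Ccr7 cells, and in stroma in 39.3% of d/d and 56.6% of f/f barcodes. Ccl17, a chemokine that draws Ccr4-bearing T cells, was found in 0 of 43 d/d and 0 of 16 f/f cells, and Ccl22, which acts on the same receptor, in 12 of 43 d/d and 1 of 16 f/f cells. The cells are therefore called by their gene here. Against the other members, 152 of 6190 genes (2.46%) were at least 2-fold higher in the Ccr7 subset in both libraries. The 12 leading ones were Cd40, Dennd4a, Hist1h2ae, Ifrd1, Il1b, Nfkbiz, Nr4a3, Ptafr, Ptgs2, Tnfaip3, Tnfsf9 and Traf1.

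Levels of the better known of these genes follow. Cd40 receives the licensing signal of helper T cells, and stood at 189 CPM in d/d Ccr7 cells and 54.7 CPM in f/f Ccr7 cells, log2 ratios over the other members of 2.63 in d/d and 3.93 in f/f. Nr4a3, an orphan nuclear receptor induced by activation, stood at 1864 CPM in d/d and 503 CPM in f/f Ccr7 cells (log2 1.63 in d/d and 1.92 in f/f over the other members). Il1b, the inflammatory interleukin, reached 3289 CPM in d/d and 1793 CPM in f/f Ccr7 cells (log2 1.27 in d/d and 1.43 in f/f). Ptgs2, the inducible enzyme of prostaglandin synthesis, stood at 891 CPM in d/d and 481 CPM in f/f Ccr7 cells. Traf1, an adaptor of the tumour necrosis factor receptor family, and Tnfaip3, the inhibitor of NF-kB signalling known as A20, completed this group, Traf1 at 694 CPM in d/d and 197 CPM in f/f and Tnfaip3 at 797 CPM in d/d and 492 CPM in f/f. Of the 16 f/f Ccr7 barcodes, 1 held 35804 of the subset's 91459 UMIs and was mixed.

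As a whole, the Xcr1/Clec9a subset matched type 1 cells in both libraries, but some of its barcodes held more type 2 than type 1 UMIs. In d/d the type 1 and type 2 list UMIs of such barcodes were 23 and 70, 25 and 43, 14 and 37, 16 and 17, and 6 and 17. In f/f they were 33 and 41, and 8 and 27. Of 16 measured genes of the type 1 list, 14 were at least 2-fold higher than in the other members in d/d and 15 in f/f, where 10.9% of all measured genes were in d/d and 7.3% in f/f. Irf8 stood at 562 CPM in d/d and 1054 CPM in f/f cells of the subset and was detected in 24 of 32 d/d and 55 of 61 f/f cells. Tlr3, the endosomal sensor of double-stranded RNA, stood at 134 CPM in d/d and 308 CPM in f/f, log2 ratios over the other members of 4.64 in d/d and 2.69 in f/f. Itgae, the chain of CD103, stood at 138 CPM in d/d and 283 CPM in f/f. Fcrla, Gcsam, Ppt1, Rab7b, Rtl8a, Rtl8b and Sept3 were among the leading genes in both libraries as well. Actg2, a smooth muscle actin, also led this subset, with 42 d/d and 47 f/f UMIs, and was found in only 4 d/d and 5 f/f members altogether. In the Cd209a subset the lectin Clec10a stood at 552 CPM in d/d and 607 CPM in f/f, and Wfdc17 at 849 CPM in d/d and 1364 CPM in f/f. Of 14 measured genes of the type 2 list, 6 in d/d and 11 in f/f were at least 2-fold higher than in the other members, against 17.6% of all measured genes in d/d and 11.3% in f/f.

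**Figure D3:**
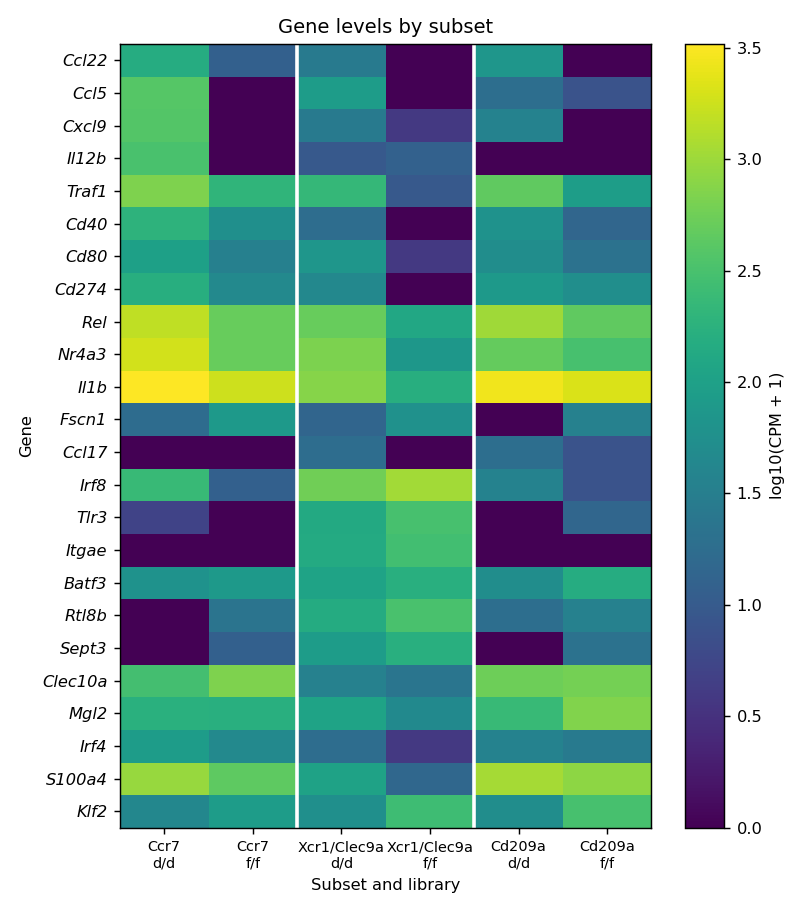
Level of 24 genes, as log10 of CPM plus 1, in the Ccr7, Xcr1/Clec9a and Cd209a subsets, each with d/d left of f/f. Ccl22, Ccl5, Cxcl9 and Il12b are highest in d/d Ccr7 cells, while Irf8, Tlr3 and Itgae are highest in the Xcr1/Clec9a subset of both libraries.

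Across all dendritic cells, 400 of 6197 measured genes (at least 20 UMIs over both libraries) were at least 2-fold higher in d/d, or 6.45%, and 1212 were at least 2-fold lower, or 19.6%. The median log2 ratio over these genes was -0.34, so ratios are to be read against that shift. Of the genes past 2-fold, 24.8% were higher in d/d on this scale, but 53.6% were with TMM scaling in edgeR and 56.2% with the median of ratios. Without mixed barcodes 298 of 4211 genes were higher (7.08%) and 611 lower (14.5%). List counts over all dendritic cells below are to be read beside these shares of all genes.

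The 12 genes highest in d/d by the bound of their counting interval nearest 0 were Ccl22, Ccl5, Cxcl9, Il12b, Cxcl2, Traf1, Dusp5, Jdp2, AY036118, Oasl1, Gdf15 and Slc7a11. The chemokines stood out among them. Ccl22 had 50 UMIs in 19 d/d cells and 1 UMI in f/f, or 82.7 CPM in d/d and 1.54 CPM in f/f, a log2 ratio of 5.74 (3.20 to 11.08). Ccl5, which draws effector T cells and natural killer cells, had 116 UMIs in 19 d/d cells and 1 UMI in f/f, a log2 ratio of 6.96 (4.45 to 12.27). Cxcl9, an interferon-gamma-induced ligand of Cxcr3, had 101 UMIs in 18 d/d cells and 1 UMI in f/f, a log2 ratio of 6.76 (4.25 to 12.08). These were genes of few cells, and most of their UMIs lay in Ccr7 cells: 36 of 50 for Ccl22, 94 of 116 for Ccl5 and 91 of 101 for Cxcl9 in d/d. The most that 1 d/d cell gave was 37 UMIs for Cxcl9 and 29 UMIs for Ccl5. Cxcl2, a neutrophil attractant, had 372 UMIs in 24 d/d cells and 26 UMIs in 8 f/f cells (log2 3.94, 3.36 to 4.57), and 135 of the d/d UMIs came from 1 cell.

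In stroma the background for these chemokines was low. Ccl22 was found in 0.0360% of d/d and 0.0199% of f/f stroma, Ccl5 in 1.30% of d/d and 0.419% of f/f stroma, and Cxcl9 in 0.756% of d/d and 2.47% of f/f stroma, at the depths given above. Ccl22 also was nearly absent from macrophages, with 1.08% of d/d and 0% of f/f cells detected, while Ccl5 was found in 18.4% of d/d and 4.25% of f/f macrophages. Over the whole chemokine list 7 of 13 measured genes were at least 2-fold higher and 2 lower in d/d (6.45% and 19.6% of all genes). The median log2 ratio was 1.54, or 1.18 without mixed barcodes. The lower ones were Ccl7, with 3 d/d and 22 f/f UMIs, and Cxcl12, with 18 d/d and 42 f/f UMIs. The list summed to 3270 CPM in d/d and 1364 CPM in f/f dendritic cells. In macrophages it was higher in d/d too, at 13207 CPM against 3290 CPM in f/f, and at 15485 CPM against 6955 CPM without mixed barcodes.

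**Figure D4:**
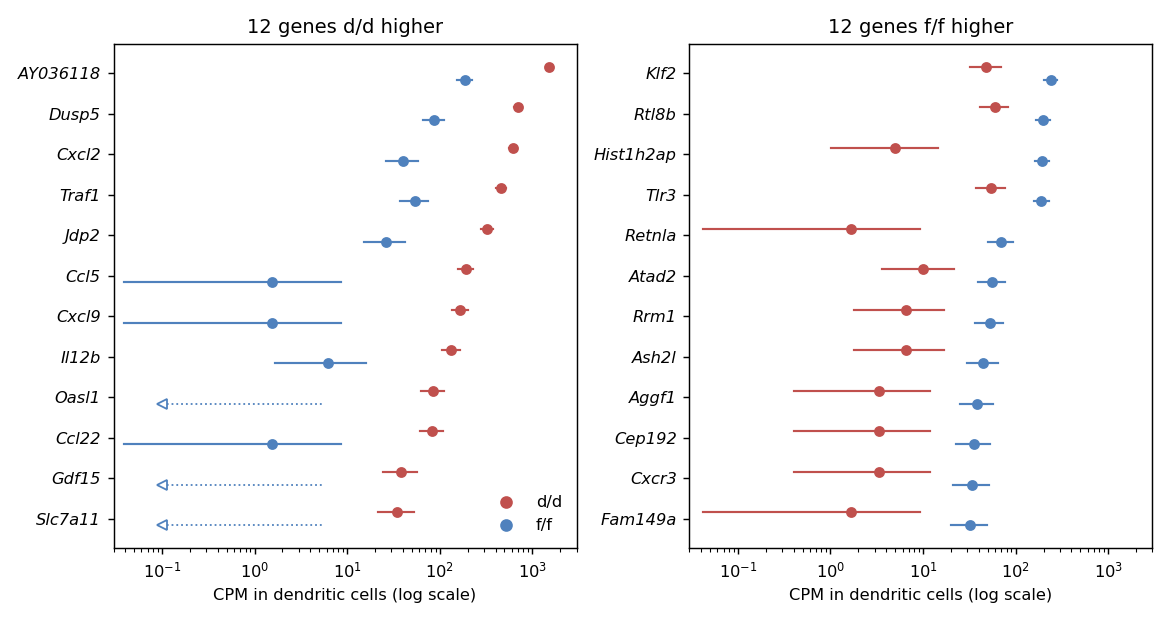
CPM in dendritic cells (log scale) with 95% Poisson intervals for the 12 genes highest and the 12 lowest in d/d, d/d (red) above f/f (blue) in each row of 2 panels. Open triangles with dotted lines mark genes with 0 UMIs, drawn up to the upper limit of the interval. Ccl22, Ccl5 and Cxcl9 have 1 UMI each in f/f, and the d/d points of the left panel lie far to their right.

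The kappaB element bound by NF-kB was sought in the 250 bases before the first listed RefSeq start of each gene (build GRCm38.p6). The standard degenerate consensus was used on both strands, and a promoter was counted once however many matches it held. Matches were found in 2 of the 12 genes highest in d/d, Cxcl2 and Oasl1, and in Tnfaip3 of the Ccr7 subset. The 60 bases around each match are shown so that the element can be seen in its setting, in the direction of the gene, with matches in capitals.
Cxcl2 (chr5:90903777-90903836, plus strand): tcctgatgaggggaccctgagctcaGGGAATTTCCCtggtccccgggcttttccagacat
Oasl1 (chr5:114923180-114923239, plus strand): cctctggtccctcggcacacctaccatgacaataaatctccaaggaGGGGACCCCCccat
Tnfaip3 (chr10:19015501-19015560, minus strand): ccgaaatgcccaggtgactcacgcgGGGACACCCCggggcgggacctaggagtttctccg

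The capitals of Cxcl2 cover 2 overlapping matches, 1 on each strand, and Tnfaip3 had another match outside the stretch shown. Promoters were listed for 11 of the 12 genes highest in d/d, of which 2 held the element, and for 8 of the 12 leading genes of the Ccr7 subset, of which 1 did. Of the 12 genes highest in f/f, 8 had a promoter and 1, that of Tlr3, held it. Of the 12 leading genes of the Xcr1/Clec9a subset, 8 had a promoter and 1, again that of Tlr3, held the element. Among all 27025 promoters 1014 held it, or 3.75%. The matches depended on the pattern. With any base allowed at the fourth position, 5 of the 11 promoters held a match, those of Cxcl2, Cxcl9, Dusp5, Gdf15 and Oasl1, against 2081 of all promoters, or 7.70%. With this pattern the count stayed at 1 of 8 for the Ccr7 subset, for the genes highest in f/f and for the Xcr1/Clec9a subset. The wider pattern was set after the matches of a similar search were seen, and a match is one of letters only.

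NF-kB targets as a list were higher in d/d. Of 23 measured genes, 18 were at least 2-fold higher and 0 were at least 2-fold lower, with a median log2 ratio of 1.42, and without mixed barcodes the count was 12 and the median 1.05. Rel, an NF-kB subunit of activated leukocytes, had 609 UMIs in d/d and 166 in f/f (1007 CPM in d/d and 256 CPM in f/f, log2 1.98, 1.73 to 2.23). Bcl2a1b, a survival factor of the Bcl2 family, had 399 UMIs in d/d and 82 in f/f (log2 2.38, 2.04 to 2.74). Traf1 had 276 UMIs in 71 d/d cells and 35 UMIs in 25 f/f cells (456 CPM in d/d and 54.0 CPM in f/f, log2 3.08, 2.57 to 3.63), and was found in 0.648% of d/d and 0.578% of f/f stroma.

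The list was also counted within each subset. In the Ccr7 subset 11 of 21 measured NF-kB targets were at least 2-fold higher in d/d and 0 lower, where 15.5% of all genes were higher and 15.2% lower. In the Xcr1/Clec9a subset 10 of 15 were higher and 0 lower (7.8% and 18.4% of all genes), and in the Cd209a subset 6 of 18 and 0 (7.76% and 12%). Traf1 gave 51 UMIs in 17 of 32 d/d cells and 3 UMIs in 3 of 61 f/f cells of the Xcr1/Clec9a subset, a log2 ratio of 4.70. Without mixed barcodes, which held 58.5% of the f/f Ccr7 subset's UMIs, the counts were 10 higher and 1 lower of 20 in the Ccr7 subset (12.8% and 14.5% of all genes), 10 and 0 of 15 in the Xcr1/Clec9a subset (10.2% and 13.2%), and 6 and 0 of 18 in the Cd209a subset (6.26% and 11.5%). The summed level of the list in the Ccr7 subset was then 18328 CPM in d/d and 12394 CPM in f/f, against 16688 CPM in d/d and 7654 CPM in f/f with all barcodes. Weighting the subsets equally in both libraries brought the median of the list to 1.02.

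It was not particular to dendritic cells. In macrophages 23 of 23 NF-kB targets were at least 2-fold higher in d/d, with a median of 2.35, where 9.35% of 9116 genes were higher and 19.8% lower. Without mixed barcodes 19 of 23 were, with a median of 1.39, where 8.84% of 6402 genes were higher and 11.9% lower. In stroma 12 of 23 were higher and 1 lower with a median of 1.02, where 12% of 14415 genes were higher and 8.06% lower. The immediate early and heat shock list, a set that dissociating a tissue is known to induce, had a median of 0.52 in dendritic cells, 1.36 in macrophages and 2.11 in stroma. Among dendritic cells 5 of its 29 genes were at least 2-fold higher and 2 lower, and their median without mixed barcodes was 0.12. With 1 library per genotype, handling of the tissue and genotype cannot be told apart.

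**Figure D5:**
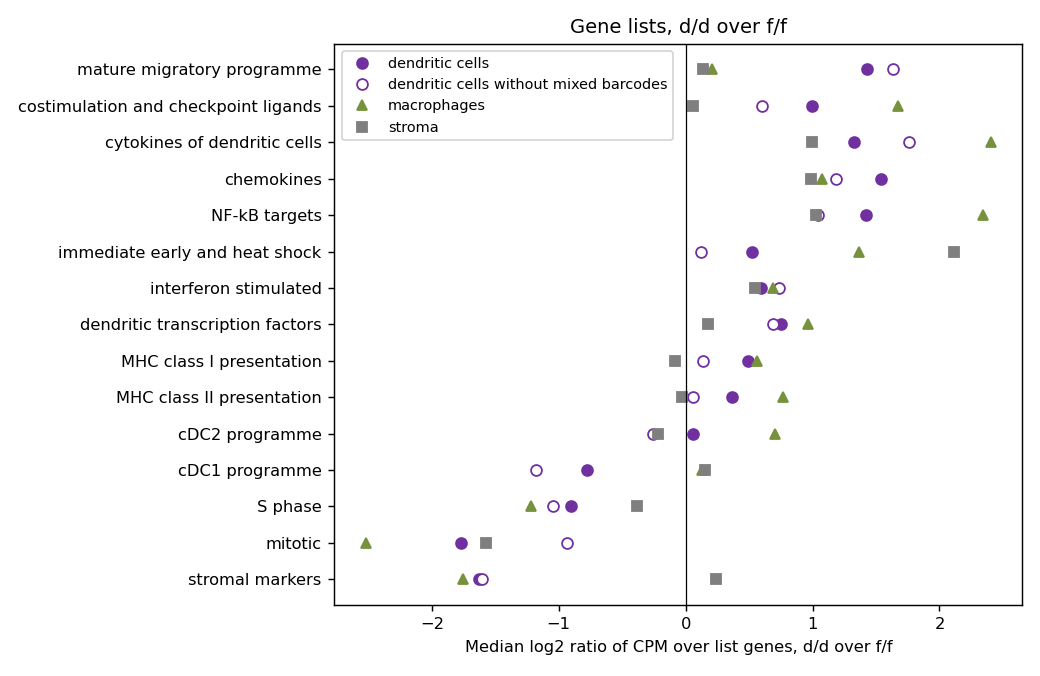
Median log2 ratio of d/d over f/f for 15 gene lists in dendritic cells (filled circles), dendritic cells without mixed barcodes (open circles), macrophages (triangles) and stroma (squares). NF-kB targets are above 0 in all 3 cell types (1.42, 2.35 and 1.02), and the mature list is 1.43 in dendritic cells, 0.20 in macrophages and 0.14 in stroma.

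The list of mature, migratory dendritic cells was counted in the same cell types. In dendritic cells 10 of 17 measured genes were at least 2-fold higher and 2 lower in d/d, with a median of 1.43 (1.63 without mixed barcodes). In macrophages the median was 0.20, with 6 of 17 genes higher and 4 lower, and without mixed barcodes, which held 67.8% of f/f macrophage UMIs, it was 0.50, with 5 of 13 higher and 0 lower. In stroma it was 0.14, and the difference between cell types was not tested. Besides Ccl22, Ccl5 and Traf1, Samsn1, an adaptor that restrains lymphocyte signalling, had 191 UMIs in d/d and 27 in f/f (log2 2.92, 2.34 to 3.56). Marcksl1, an actin-linked protein, had 251 UMIs in d/d and 100 in f/f (log2 1.43). The 2 lower genes were Fscn1, with 7 d/d and 38 f/f UMIs, and Cd200, an inhibitory ligand, with 24 d/d and 62 f/f UMIs. Without mixed barcodes Fscn1 had 3 d/d and 9 f/f UMIs. Inside the Ccr7 subset 10 of 12 measured genes of the list were at least 2-fold higher in d/d and 0 lower, where 15.5% of all genes were higher and 15.2% lower. Mixed barcodes held 58.5% of the f/f Ccr7 subset's UMIs. The list summed to 4135 CPM in d/d and 1421 CPM in f/f Ccr7 cells, and to 4377 CPM in d/d and 1556 CPM in f/f without mixed barcodes.

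Costimulatory and checkpoint ligands were split, with the classical ones higher in d/d. Of 12 measured genes 6 were at least 2-fold higher and 1, Cd200, lower (6.45% and 19.6% of all genes). The median was 0.99, or 0.60 without mixed barcodes. The list summed to 2082 CPM in d/d and 1027 CPM in f/f dendritic cells. In macrophages it was higher in d/d too, at 1930 CPM against 641 CPM in f/f, and at 2195 CPM against 1197 CPM without mixed barcodes. Cd40 had 57 UMIs in 29 d/d cells and 7 UMIs in 6 f/f cells (94.3 CPM in d/d and 10.8 CPM in f/f, log2 3.13, 1.99 to 4.50), and was found in 1.62% of d/d and 1.36% of f/f stroma. Cd80, which binds Cd28 and Ctla4 on T cells, had 47 d/d and 7 f/f UMIs (log2 2.85, 1.69 to 4.24), and its partner Cd86 had 89 d/d and 34 f/f UMIs (log2 1.49). Cd274, the ligand of the inhibitory receptor PD-1, had 58 UMIs in 30 d/d cells and 13 UMIs in 9 f/f cells (log2 2.26, 1.37 to 3.25). Icam1, the adhesion molecule of the synapse with T cells, had 91 d/d and 20 f/f UMIs (log2 2.29). Pdcd1lg2 was at 0 in both libraries, and Icosl, with 20 d/d and 21 f/f UMIs, was level.

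Among cytokines 7 of 12 measured genes were at least 2-fold higher in d/d and 0 lower (6.45% and 19.6% of all genes), with a median of 1.33. Without mixed barcodes 6 of 11 were higher and 1 lower, with a median of 1.76. The list summed to 3000 CPM in d/d and 1189 CPM in f/f dendritic cells. In macrophages it was higher in d/d too, at 3638 CPM against 699 CPM in f/f, and at 4337 CPM against 1468 CPM without mixed barcodes. Il12b, the subunit shared by interleukins 12 and 23, had 80 UMIs in d/d and 4 in f/f (log2 4.42, 3.01 to 6.33), but these lay in 6 d/d and 2 f/f cells, and 1 d/d cell gave 31 of them. Il12a, the other chain of interleukin 12, was at 0 in both libraries. Il1b had 1295 UMIs in 82 d/d cells and 535 UMIs in 61 f/f cells (2142 CPM in d/d and 825 CPM in f/f, log2 1.38, 1.23 to 1.52). Tnf had 58 UMIs in 27 d/d cells and 11 UMIs in 9 f/f cells (log2 2.50, 1.55 to 3.58), and Areg, a growth factor of epithelium, 22 UMIs in 7 d/d cells and 3 UMIs in 3 f/f cells (log2 2.97, 1.24 to 5.36).

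Antigen presentation differed little by list. For class II, 1 of 15 measured genes not used by the rule was at least 2-fold higher in d/d and 1 lower, with a median of 0.36, or 0.06 without mixed barcodes. H2-Eb1, a class II beta chain, stood at 12168 CPM in d/d and 5773 CPM in f/f (log2 1.08, 1.02 to 1.13), and at a log2 ratio of 0.70 without mixed barcodes. March1, the ubiquitin ligase that clears class II from the surface of resting dendritic cells, was the lower one, with 16 d/d and 57 f/f UMIs (log2 -1.73, -2.63 to -0.91). The rule genes H2-Ab1 and Cd74 had log2 ratios of 0.75 and 0.41, and the rule gene H2-Aa had 5058 d/d and 2715 f/f UMIs. In the class I list 3 of 20 genes were at least 2-fold higher and 0 lower, with B2m, the shared light chain, at 1785 CPM in d/d and 887 CPM in f/f, and without mixed barcodes 0 were.

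Transcription factors of dendritic cells were more often at least 2-fold higher in d/d than lower. Of 30 measured, 12 were higher and 1, Tcf4, lower, where 6.45% of all genes were higher and 19.6% lower. Their median was 0.75, against -0.34 over all genes. Tcf4 had 76 d/d and 216 f/f UMIs, and 36 d/d and 46 f/f UMIs without mixed barcodes. Without mixed barcodes 8 of 29 factors were higher and 2 lower (7.08% and 14.5% of all genes), with a median of 0.69. Irf4 had 29 d/d and 9 f/f UMIs (log2 1.79, 0.67 to 3.05), and Cebpb, a factor of inflammatory myeloid genes, 207 d/d and 76 f/f UMIs (log2 1.55, and 0.77 without mixed barcodes). Spib, with Siglech a gene of plasmacytoid cells, had 20 UMIs in 7 d/d cells and 1 UMI in f/f, and Siglech had 10 UMIs in 4 d/d cells and 1 UMI in f/f. Of the Spib UMIs in d/d, 14 came from 1 cell, and 1 d/d barcode of the Xcr1/Clec9a subset held 65 UMIs of the plasmacytoid list and 16 of the type 1 list. Irf8 stood at 342 CPM in d/d and 605 CPM in f/f (log2 -0.82, -1.07 to -0.57).

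Interferon-stimulated genes were mixed. Of 14 measured, 4 were at least 2-fold higher and 1 lower in d/d (6.45% and 19.6% of all genes), with a median of 0.60. Oasl1, an interferon-induced regulator of translation, had 51 UMIs in 11 d/d cells and 0 in f/f, a log2 ratio of at least 4.19 with 3 counts set for the f/f sum, but 1 d/d cell gave 26 of them. Isg15, the ubiquitin-like interferon product, had 44 d/d and 11 f/f UMIs (log2 2.10, 1.12 to 3.20).

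The genes lower in d/d included those of type 1 cells and of the cell cycle. The 12 lowest by the same bound were Hist1h2ap, Retnla, Cxcr3, Tlr3, Rtl8b, Klf2, Aggf1, Ash2l, Atad2, Cep192, Fam149a and Rrm1. Of 16 measured type 1 genes 0 were at least 2-fold higher and 5 lower, with a median of -0.77. Without mixed barcodes 10 were lower, with a median of -1.18, and with the subsets weighted equally in both libraries the median was -0.35, near the -0.30 of all genes on that scale. Tlr3 had 33 UMIs in 17 d/d cells and 123 UMIs in 51 f/f cells (54.6 CPM in d/d and 190 CPM in f/f, log2 -1.80, -2.40 to -1.23). Inside the Xcr1/Clec9a subset 3 of 16 type 1 genes were at least 2-fold lower, where 18.4% of all genes were. Without mixed barcodes 6 of 16 were, with a median of -0.76, where 13.2% of all genes were. The subset held barcodes with more type 2 than type 1 UMIs, as given above, and their part in these counts was not tested. Tlr3 had 15 of 32 d/d and 42 of 61 f/f cells of that subset detected, and a log2 ratio of -1.20.

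Cxcr3, the receptor of Cxcl9, had 2 d/d and 22 f/f UMIs (log2 -3.36, -6.49 to -1.33). Klf2, a quiescence factor of leukocytes and endothelium, had 29 UMIs in 22 d/d cells and 156 UMIs in 67 f/f cells (log2 -2.33, -2.95 to -1.75), and -2.62 without mixed barcodes. Retnla, a product of alternatively activated myeloid cells, had 1 d/d UMI and 45 f/f UMIs, of which 41 lay in 1 f/f cell.

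Cell cycle genes were lower in d/d over all members, but not in every subset, and this result depended on the mixed barcodes in part. The mitotic list summed to 260 UMIs or 430 CPM in d/d and 791 UMIs or 1220 CPM in f/f, and 0 of 16 measured genes were at least 2-fold higher and 15 lower, with a median of -1.77. Mixed barcodes held 20% of the mitotic UMIs in d/d and 52.7% in f/f. Without them the list stood at 454 CPM in d/d and 1055 CPM in f/f, and 4 of the 9 genes still measured were at least 2-fold lower, with a median of -0.93. With all barcodes it was lower in d/d in Ccr7 cells (382 CPM against 2733 CPM in f/f) and in Xcr1/Clec9a cells (220 CPM against 1229 CPM). In Cd209a cells it was higher in d/d, at 1007 CPM against 539 CPM in f/f, and at 1273 CPM against 662 CPM without mixed barcodes. Single Cd209a barcodes held 66 and 26 of the 115 mitotic UMIs in d/d, and 44 of the 79 in f/f. At least 3 mitotic genes were detected in 4 of 24 d/d and 4 of 39 f/f Cd209a cells. These sums rested on few cells, as 8 d/d and 20 f/f members had at least 5 mitotic UMIs. Hist1h2ap, a replication-dependent histone, had 3 UMIs in 2 d/d cells and 125 UMIs in 16 f/f cells (log2 -5.28, -7.58 to -3.70), and 85 of the f/f UMIs remained without mixed barcodes. In macrophages mixed barcodes held 90.7% of the f/f mitotic UMIs. In the list of S phase genes 0 of 15 were higher and 7 lower (6.45% and 19.6% of all genes), with a median of -0.90. Without mixed barcodes 0 of 9 were higher and 6 lower (7.08% and 14.5% of all genes).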

How the data were processed

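Whole uteri of gestational day 4 were minced, digested for up to 30 min and strained at 40 µm, and cells went through droplet 3′ RNA sequencing, per the labels. The deposited matrices hold UMI counts per gene and barcode, not normalized. The file headers name Cell Ranger 6.0.1, while the submitters' processing notes name Cell Ranger 3.0.1 and the mm10 build. Barcodes were kept from 1000 UMIs and 500 detected genes upward if mitochondrial genes gave no more than 20% of UMIs, and the dendritic rule was applied to 31053 genes.

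Counts were summed per library and class and scaled to CPM of the class total. Genes needed at least 20 UMIs over both libraries, a difference meant at least 2-fold, and a sum of 0 was set to 3 counts. Binomial intervals (Clopper-Pearson) and conditional Poisson ratio intervals were exact at 95%. Only the ratio intervals were tested on simulated data, with independent Poisson counts, so UMIs gathered in few cells were not covered. Stroma had at least 10 UMIs of Dcn, Col1a1 and Col3a1. Doublets were scored with Scrublet but not removed. The work used Python 3.11.15 with NumPy 2.4.6, SciPy 1.17.1, pandas 2.3.3, scanpy 1.11.5 and matplotlib 3.10.9, and edgeR 4.0.16 in R 4.3.3 for TMM scaling as an alternative.

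Named genes were Mettl14, the rule genes, the 12 genes furthest above and below by the interval bound nearest 0, the 12 leading genes of each subset and of dendritic cells over macrophages, and up to 4 genes of each of the 35 lists. Batf3, Ccl7, Ccl17, Cd86, Cd200, Cxcl12, Icosl, Ighm, Il12a, Pdcd1lg2 and Siglech, and the genes named without values as absent markers, were chosen after their values were seen. The members and lists were chosen with earlier results of these data known. The minimum UMIs, marker and complement limits, depth, doublets, scaling, low-count filter and weight of cells were varied. The exclusion of mixed barcodes and the equal weighting of subsets were added after the data were seen.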

Additional observations from a re-analysis of the deposited data

Results flagged for a closer look

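Several genes differed from the other members in opposite directions in the 2 libraries, and none of these differences was tested. Unless a unit is given, values are log2 ratios of a subset over the other dendritic cells. In the Xcr1/Clec9a subset, Csf2rb2, a chain of cytokine receptors, stood at 1.43 in d/d and -1.49 in f/f, and Icam1 at -1.65 in d/d and 1.73 in f/f. In the Cd209a subset, activation genes were lower than in the other members in d/d and higher in f/f: Cxcl2 stood at -1.31 in d/d and 2.69 in f/f, Dusp5 at -1.31 in d/d and 1.04 in f/f, and Nr4a3 at -1.39 in d/d and 1.09 in f/f. The receptor chains Csf2rb, at -2.30 in d/d and 1.14 in f/f, and Csf2rb2, at -1.31 in d/d and 4.36 in f/f, did likewise there. The smooth muscle genes Acta2, at 1.36 in d/d and -2.90 in f/f, and Tagln, at 1.32 in d/d and -3.11 in f/f, went the other way in that subset. These values rested on mixed barcodes. Without them the smooth muscle and pericyte list fell from 2977 CPM to 212 CPM in d/d Cd209a cells, and from 1608 CPM to 162 CPM in f/f Xcr1/Clec9a cells. In f/f 1 cell gave 120 of 212 Acta2 UMIs, and 1 cell gave 96 of 183 Tagln UMIs.

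Kit, the receptor for stem cell factor, had a log2 ratio of d/d over f/f of 1.13 in dendritic cells and -2.43 in macrophages, a difference that was not tested. Outside the barcode filters, 4 d/d and 2 f/f barcodes met the gene rule.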

How the results depend on the processing

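The Ccr7 share ratio of d/d over f/f lay between 3.21 and 5.52 under the alternatives run, the Xcr1/Clec9a ratio between 0.599 and 0.832, and the dendritic share ratio between 0.815 and 1.08. The Cd209a share ratio was 0.387 when 3 marker genes were required. The number of genes at least 2-fold higher in d/d was 721 with TMM, 757 with the median of ratios, 232 with at least 50 UMIs and 1932 with no filter. The number lower was 625, 591, 377 and 3550 under the same settings, and 611 without mixed barcodes. List medians ranged from 1.25 to 1.84 for the mature list, 1.02 to 1.83 for NF-kB targets, -1.90 to -0.93 for mitotic genes and -1.18 to -0.35 for type 1 genes. The class II median was 0.06 to 0.78, the highest with the median of ratios. The cause of these shifts was not tested. The Cd209a ratio crossed 1 when cells were thinned (1.12) and when cells of more than 1 subset were left out (1.02), and under TMM and the median of ratios more genes were higher than lower. No paired analysis was possible because each genotype has 1 library. With about 100 members a library, genes of few UMIs have wide intervals.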

Other observations

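Receptors for migration and growth signals were split between the libraries. Of 9 measured chemokine and migration receptors 3 were at least 2-fold higher in d/d and 1, Cxcr3, lower (6.45% and 19.6% of all genes were). Without mixed barcodes 1 of 8 was higher and 0 lower, with a median of 0.40. Cxcr4, the receptor of the stromal chemokine Cxcl12, had 178 UMIs in d/d and 48 in f/f (log2 1.99, 1.52 to 2.48), and Gpr183, an oxysterol receptor that positions dendritic cells in lymphoid tissue, 94 UMIs in d/d and 28 in f/f (log2 1.85, 1.23 to 2.51, and 0.77 without mixed barcodes). Il2rg, the shared chain of several interleukin receptors, had 48 UMIs in d/d and 11 in f/f (log2 2.23, 1.26 to 3.32), while Csf2rb, the chain shared by the GM-CSF and interleukin 3 receptors, had 133 in d/d and 46 in f/f (log2 1.63, 1.14 to 2.15).

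Genes linked to tolerance were higher or lower depending on the gene. Of 11 measured, 3 were at least 2-fold higher in d/d and 5 lower (6.45% and 19.6% of all genes), with a median of -0.37. Without mixed barcodes 3 of 7 were higher and 1 lower, with a median of -0.07. Hmox1, the heme-degrading enzyme, had 112 UMIs in d/d and 17 in f/f (log2 2.82, 2.08 to 3.65), and Lgals3, a galectin, 537 in d/d and 131 in f/f (log2 2.14, 1.86 to 2.42). Lgals1, another galectin, had 190 UMIs in d/d and 690 in f/f (log2 -1.76, -2.0 to -1.53), and 68 in d/d and 110 in f/f without mixed barcodes. In the list of N6-methyladenosine writers, erasers and readers 0 of 16 genes were at least 2-fold higher and 1, the eraser Fto with 11 d/d and 35 f/f UMIs, lower, with a median of -0.18, and without mixed barcodes 2 of 12 were lower. Of 11 steroid receptor genes 0 were higher and 3 lower (6.45% and 19.6% of all genes), with a median of -0.46. Without mixed barcodes 0 of 5 were lower.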
